A study of Mus musculus with 10 samples.

Results

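Chromatin loops of IL-4-primed macrophages given IFNG were compared with those of untreated macrophages. The pIL-4 + IFNG list held 67000 loops and the M0[CTR] list 53424, together 120424 of the 301424 loops in the 5 lists of the series. Both lists were taken whole, as named by the sample titles, and no loop was chosen by its value. A loop joins 2 bins of 10 kb, called its anchors, and carries a whole-number count of the contacts between them. All cells were bone marrow-derived macrophages (BMDMs) of wild type C57BL/6 female mice, 2 to 3 months old, and every group was grown and treated with M-CSF at 20 ng/ml. Treatments began on day 6 of differentiation. M0[CTR] received no cytokine beyond M-CSF. For pIL-4 + IFNG, IL-4 (20 ng/ml) was present for 24 h, the cells were washed and rested for 24 h, and IFNG (20 ng/ml) followed for 3 h. M2[IL-4] cells received only the IL-4, M2p[pIL-4] cells IL-4 and rest, and IFNG cells only IFNG at the same dose and time. Each group had 2 samples merged into 1 list, so the differences below lack a check over replicates, and the interval or test given with a value covers counting error between 2 libraries. A change in the share of cells that hold a contact and a change within each cell cannot be told apart in these pooled cells.

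Loops bring distant segments of a chromosome together, among them promoters and enhancers, and many are anchored at sites of the insulator protein CTCF. IFNG acts through its receptor and the kinases JAK1 and JAK2 on transcription factors that bind gamma-activated sites (GAS) and drive genes of antigen presentation and of defence against intracellular microbes. IL-4 acts mainly through STAT6, which turns on genes of alternative polarization in macrophages, and some of the changes it leaves in chromatin outlast the cytokine. The comparison asks which loops of resting cells were called again, and which were called anew, after both signals.

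Promoter sequences are shown first for genes on which the results below turn. They run from 250 bases before to 50 bases after the RefSeq start (GRCm38.p6), 5′ to 3′ on the gene's strand. Capitals mark matches to TTCNNNGAA, the GAS pattern, or to TTC and GAA with 4 bases between them, the spacing preferred by STAT6. Each pattern is its own reverse complement, so a match counts for both strands. The first pair, of the guanylate-binding proteins Gbp5 and Gbp7, belongs to the locus that gained the largest patch of loops. Irf1, an IFNG-induced transcription factor, lies where contacts were fewer, and Tgtp2, of the IFNG-induced GTPases, had a log2 ratio of loop number of -0.90. Edn1 and Pdcd1lg2 carry the wider spacing and had log2 ratios of 0.72 and 0.76, and all 3 of these ratios were within 2-fold.
Gbp5 (chr3:142496684-142496983, plus strand): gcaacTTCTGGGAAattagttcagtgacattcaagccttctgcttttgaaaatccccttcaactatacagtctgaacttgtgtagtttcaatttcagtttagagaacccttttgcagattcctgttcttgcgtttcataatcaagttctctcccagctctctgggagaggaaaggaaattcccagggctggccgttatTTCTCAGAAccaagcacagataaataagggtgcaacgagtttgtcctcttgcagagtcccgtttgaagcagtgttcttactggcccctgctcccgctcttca
Gbp7 (chr3:142530086-142530385, plus strand): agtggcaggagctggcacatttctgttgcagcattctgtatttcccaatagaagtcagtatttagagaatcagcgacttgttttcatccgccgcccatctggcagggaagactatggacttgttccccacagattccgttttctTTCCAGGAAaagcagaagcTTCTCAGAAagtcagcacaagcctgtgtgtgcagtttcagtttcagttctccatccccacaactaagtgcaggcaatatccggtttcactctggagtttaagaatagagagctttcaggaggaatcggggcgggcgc
Irf1 (chr11:53769764-53770063, plus strand): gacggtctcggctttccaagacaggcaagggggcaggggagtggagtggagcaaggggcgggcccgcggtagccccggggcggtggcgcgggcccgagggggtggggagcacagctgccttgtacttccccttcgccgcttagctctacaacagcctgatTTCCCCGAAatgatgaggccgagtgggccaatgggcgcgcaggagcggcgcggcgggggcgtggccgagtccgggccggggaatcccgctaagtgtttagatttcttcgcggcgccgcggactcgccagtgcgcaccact
Tgtp2 (chr11:49064163-49064462, minus strand): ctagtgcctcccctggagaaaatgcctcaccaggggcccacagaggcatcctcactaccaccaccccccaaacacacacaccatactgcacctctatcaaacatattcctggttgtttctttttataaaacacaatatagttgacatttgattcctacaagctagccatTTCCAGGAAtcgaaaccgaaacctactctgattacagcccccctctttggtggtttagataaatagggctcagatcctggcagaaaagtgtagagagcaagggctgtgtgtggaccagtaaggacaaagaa
Edn1 (chr13:42301226-42301525, plus strand): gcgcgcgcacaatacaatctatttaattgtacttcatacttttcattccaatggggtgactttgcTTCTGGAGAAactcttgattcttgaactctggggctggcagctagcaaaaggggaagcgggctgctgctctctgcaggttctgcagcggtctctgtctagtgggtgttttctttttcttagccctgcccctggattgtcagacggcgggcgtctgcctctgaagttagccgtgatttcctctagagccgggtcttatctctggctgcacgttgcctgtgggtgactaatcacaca
Pdcd1lg2 (chr19:29410669-29410968, plus strand): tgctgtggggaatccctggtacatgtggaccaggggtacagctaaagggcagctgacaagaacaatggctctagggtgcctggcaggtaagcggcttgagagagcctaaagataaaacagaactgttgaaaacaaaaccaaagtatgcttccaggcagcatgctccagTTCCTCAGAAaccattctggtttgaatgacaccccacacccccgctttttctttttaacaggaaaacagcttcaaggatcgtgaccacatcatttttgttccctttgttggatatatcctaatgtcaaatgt

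Gbp5 held a GAS match starting 52 bases before its start and another at 245, and Gbp7 held matches at 106 and 87 bases before its start. The single match of Irf1 began 90 bases, and that of Tgtp2 81 bases, before the start. Of all 32851 promoters in the RefSeq table, 8.30% held the GAS pattern and 6.95% the wider pattern. Among the IFNG-induced GTPases, 6 of 11 promoters (10 genes matched) held the GAS pattern, those of Gbp5, Gbp7, Igtp, Irgm2, Tgtp1 and Tgtp2. Those of Gbp2, Gbp2b and Gbp3, in the same cluster as Gbp5 and Gbp7, held no GAS match. Their log2 ratios of loop number were 1.85, 1.77 and 1.93, beside 1.84 at Gbp5 and 1.86 at Gbp7. Among the IL-4-induced markers and effectors, 8 of 24 promoters held the wider pattern, from the genes Ccl17, Cd36, Il1rn, Itgax, Pdcd1lg2, Retnla and Tmem26. A match is a description of the letters and not a bound site. Promoters of genes with 2-fold more loops after pIL-4 + IFNG (defined below) held GAS matches in 9.51% of 431 entries (95% Wilson interval 7.09 to 12.7). The share was 9.23% of 130 entries for genes with 2-fold fewer loops (5.36 to 15.4) and 6.89% of 11182 for the other genes tested (6.43 to 7.37). The intervals of the genes with more loops, with fewer loops and of the other genes overlapped one another. Neighbouring genes that share loops were counted as separate entries, which the intervals do not allow for.

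Most loops of the treated cells had a counterpart in resting cells. Of the 67000 loops, 56869 (84.9%, 95% Wilson interval 84.6 to 85.1) had a M0[CTR] loop with both anchors within 25 kb, and 10131 had none and are called gained. In the other direction 48398 of 53424 M0[CTR] loops (90.6%, 90.3 to 90.8) were matched and 5026 are called lost. The pIL-4 + IFNG list was 25.4% longer than M0[CTR], where M2[IL-4] was 9.05%, M2p[pIL-4] 26.8% and IFNG 2.97% longer, and the longer list has more loops that can be unmatched. With the pIL-4 + IFNG list cut to its 53424 strongest loops, 87.1% were matched, and 6866 gained loops stood against 6634 lost ones, so the excess of gained loops was not seen at equal list lengths. A loop that is not called is not shown to be absent, since the caller's threshold is not given in the sources used here.

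Gained loops were longer and weaker than matched ones. Their median span was 220 kb against 160 kb, and 22.7% of them (21.9 to 23.5) spanned 500 kb or more against 8.62% (8.40 to 8.86) of matched loops. They held a median of 24 contacts against 33. Strength, the count divided by the median count of loops of the same span in the same list, had a median of 0.91 in gained and 1.01 in matched loops. Loops between neighbouring bins made up 8.42% (7.89 to 8.98) of gained and 4.44% (4.28 to 4.62) of matched loops. A bin with the transcription start site (TSS) of a protein-coding gene was an anchor of 24.0% of gained loops (23.2 to 24.9) and 30.4% of matched loops (30.1 to 30.8). Lost loops had the same profile, with a median span of 300 kb, a median of 19 contacts and a TSS bin at an anchor in 23.5% (22.3 to 24.7). Sampling of weak loops near the calling threshold and loss or gain of a contact cannot be told apart in these lists.

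**Figure D1:**
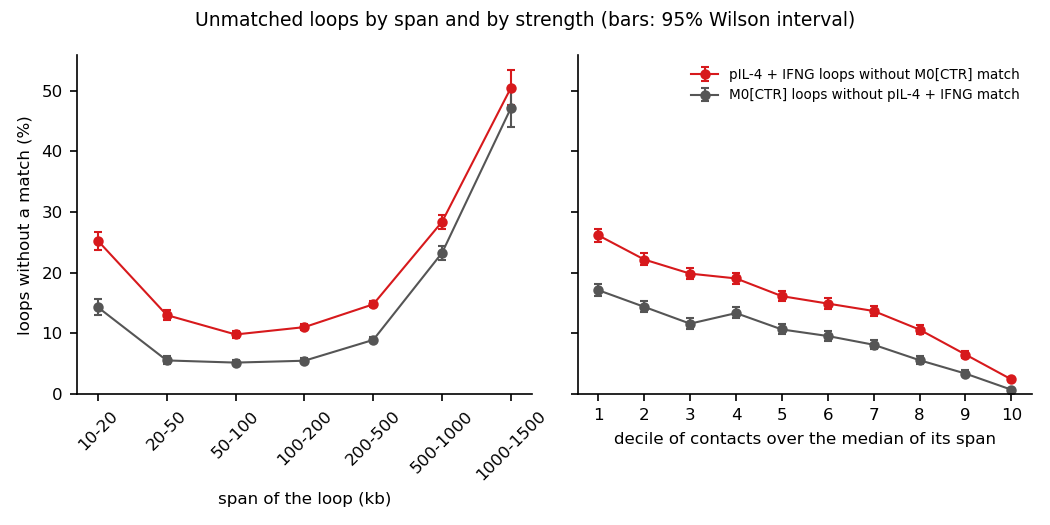
Percentage of loops without a match in the other list (vertical axis) by span in kb (left) and by decile of strength (right), for pIL-4 + IFNG loops (red) and M0[CTR] loops (grey); points are shares of 1 pooled list and bars 95% Wilson intervals. The share was lowest at 50 to 100 kb (9.78% and 5.14%), reached 50.5% and 47.1% beyond 1000 kb, and fell to 2.37% and 0.674% in the strongest decile.

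The strongest gained loop joined a bin in Ccdc69 to a bin with no protein-coding gene 40 kb away on chromosome 11 (chr11:55040001-55050000 and chr11:55080001-55090000). It held 142 contacts (exact Poisson interval 120 to 167), 2.33 times the median of its span, and no M0[CTR] loop lay within 25 kb. The other lists held a loop within 25 kb there, the strongest with 161 contacts in M2[IL-4] and 102 in both M2p[pIL-4] and IFNG. Both anchors held the CTCF core motif, on opposite strands that face each other across the loop. The bases around each core are shown with the core in capitals, on the strand of the match.
Left anchor (chr11:55046769-55046821, plus strand): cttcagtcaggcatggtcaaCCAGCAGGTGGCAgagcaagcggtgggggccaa
Right anchor (chr11:55087144-55087196, minus strand): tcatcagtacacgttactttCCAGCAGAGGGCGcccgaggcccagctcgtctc

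The other strong gained loops lay at Tent5a (46 contacts, 34 to 61 by the exact Poisson interval), between Slco3a1 and Sv2b (24 contacts), at Traf3ip2 (33 contacts) and at Prkcb, a protein kinase C (51 contacts). At Prkcb the IFNG list held a loop of 37 contacts in the same bins, and the lists with IL-4 alone, before and after rest, held none within 25 kb. The strongest lost loop by the same measure joined Lmntd1 to Itpr2, a calcium channel of the endoplasmic reticulum, with 17 contacts in M0[CTR] (9.90 to 27.2). The lost loop with the most contacts among the 5 strongest lay within Fgd3, between neighbouring bins. It held 224 contacts in M0[CTR] and 237 after IL-4 and rest, M2[IL-4] held up to 182 within 25 kb, and neither IFNG-treated list held a loop within 25 kb.

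CTCF cores were less frequent at gained than at matched loops. Of 255946 bins of the autosomes and X, 3.51% held a core on either strand, beside 9.08% of 46242 different anchors of the pIL-4 + IFNG list (8.83 to 9.35) and 9.67% of 39666 of M0[CTR] (9.38 to 9.96). A core at neither anchor was found in 82.7% (82.0 to 83.5) of gained and 76.1% (75.8 to 76.5) of matched pIL-4 + IFNG loops, and in 83.5% (82.5 to 84.5) of lost loops. Cores facing each other were found in 76 gained loops (0.750%, 0.600 to 0.938) and 646 matched loops (1.14%, 1.05 to 1.23), and in 2.97% (2.59 to 3.40) of the strongest 10% of the list. Within spans under 100 kb the share was 0.519% of gained (0.309 to 0.869) against 1.17% of matched loops (1.02 to 1.34). In the longer span classes the intervals overlapped, for example 1.11% (0.732 to 1.67) against 1.21% (1.05 to 1.39) at 100 to 200 kb. The motif allows no mismatch, so weaker sites are not counted.

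Gained loops were mostly isolated, but some formed patches of touching bin pairs. Of the 10131 gained loops, 74.1% touched no other gained loop, and 47 patches of 5 or more held 304 loops. The largest patch, of 15 loops and 375 contacts on chromosome 3, joined the Gbp5 end of the guanylate-binding protein cluster to Kyat3. In the same rectangle of bins, M0[CTR] held 0 loops, M2[IL-4] and M2p[pIL-4] 1 each and IFNG 9. A further patch of 10 loops lay inside the cluster, from Gbp7, Gbp3 and Gbp2b to Gbp2, where the 3 lists without IFNG held 0 and IFNG 7. The patch of 14 loops between Slco3a1 and Sv2b had 0 loops in M0[CTR], 3 after IL-4, 2 after IL-4 and rest and 8 after IFNG alone. A patch of 12 loops around Socs1, the inhibitor of JAK signalling, and the protamine genes Prm1, Prm2 and Prm3 held 1161 contacts, with 0 loops in M0[CTR], 6 after IL-4, 1 after IL-4 and rest and 7 after IFNG alone. A patch between Tes and Cav1, the gene of caveolin-1, was called as 8 loops in pIL-4 + IFNG and 3 in M2p[pIL-4], and as 0 in the other 3 lists. Between Rasgrf1 and Ctsh, the gene of cathepsin H, 9 loops were called in pIL-4 + IFNG, 2 in IFNG and 0 in the others.

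Lost loops formed fewer patches, 7 of 5 or more loops. The largest, of 9 loops, lay at the immunity-related GTPase gene Ifi47 on chromosome 11, where M2[IL-4] held 6 loops, M2p[pIL-4] 8, and IFNG and pIL-4 + IFNG 0 each. In the rectangle of a second lost patch, between Angel2 with Vash2 and Fam71a, the lists held 8 loops in M0[CTR], 4 after IL-4, 6 after IL-4 and rest, 2 after IFNG alone and 0 after pIL-4 + IFNG. Another, between Clec2l and Tbxas1, the gene of thromboxane synthase, held 6 loops both in M0[CTR] and after IL-4 and rest, 2 after IL-4, 1 after IFNG alone and 0 after pIL-4 + IFNG.

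Loops were then counted at genes. A loop was counted at a gene when either anchor lay within 100 kb of its TSS, and the pIL-4 + IFNG number was scaled to the M0[CTR] list length before the log2 ratio was taken with 1 added on both sides. Of 21728 protein-coding genes, 12329 with 10 or more loops in both lists together were examined. At 444 of them (3.60%) the scaled number was at least 2-fold higher after pIL-4 + IFNG, and at 136 (1.10%) at least 2-fold lower. These genes lay at 179 and 82 loci, since neighbouring genes share loops. Genes with more loops were thus 76.6% of those past 2-fold. That split depended on list length and on how loops are counted, at 404 higher and 348 lower (53.7%) with equal list lengths, and 183 and 169 (52.0%) with touching bin pairs merged, and 251 and 86 of the 444 genes were called there. Within 25 kb of the TSS instead of 100 kb, 293 genes were higher and 90 of the 444 were among them. The ratio had a median of -0.00 and an SD across genes of 0.48. Loop numbers of single genes below are given before scaling unless called scaled, and ratios after it.

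**Figure D2:**
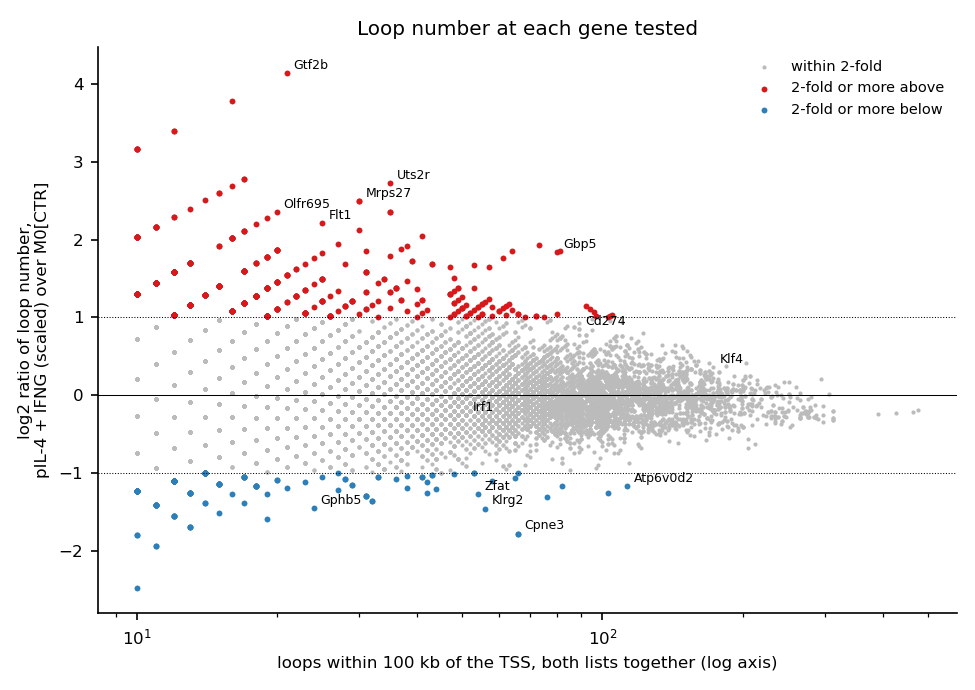
Log2 ratio of loop number, pIL-4 + IFNG scaled to list length over M0[CTR], against loops in both lists together (log axis) for the 12329 genes examined; each point is a gene and dotted lines mark 2-fold. The 444 genes above and 136 below 2-fold lie mostly among genes with few loops, while Gbp5 (80 loops) and Atp6v0d2 (113 loops) stand out among genes with many.

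Of the genes with 20 or more loops, Gtf2b, the general transcription factor IIB, had the highest ratio. It had 0 loops in M0[CTR], 1 after IL-4 with or without rest, 11 after IFNG alone and 21 after pIL-4 + IFNG. Against a floor of 3 loops, its 16.7 scaled loops were at least 5.58-fold higher. The log2 ratio of Gtf2b, 4.15 as counted here, was 1.76 within 25 kb and 1.82 with touching bin pairs merged. Gtf2b lies beside the guanylate-binding proteins, and 18 of its 21 loops were gained. The next locus, of the urotensin receptor Uts2r and the secreted proteins Sectm1a and Sectm1b on chromosome 11, held 3 loops in M0[CTR], 11 after IL-4, 12 after IL-4 and rest, 25 after IFNG alone and 32 after pIL-4 + IFNG at Uts2r (log2 ratio 2.73). Mrps27, of the mitochondrial ribosome, had 3, 13, 7, 14 and 27 loops in the same order (2.49). The olfactory receptor gene Olfr695, chosen from a cluster of 18 genes past 2-fold within 300 kb, had 2, 12, 12, 13 and 18 (2.36). Flt1, a receptor of vascular endothelial growth factor that is also on the IL-4 list, had 3, 22, 9, 17 and 22 (2.21). At Flt1 the M2[IL-4] and pIL-4 + IFNG lists thus held the same number of loops before scaling, though the second list is the longer.

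The remaining genes of the 8 highest were Serpina3j, Prdx6 and 4930518I15Rik. Serpina3j, of a cluster of serine protease inhibitors, had 6 loops in M0[CTR], 12 after IL-4, 9 after IL-4 and rest, 28 after IFNG alone and 32 after pIL-4 + IFNG (log2 ratio 1.92). Prdx6, a peroxiredoxin, had 6, 5, 10, 29 and 31 (1.88). 4930518I15Rik had 3, 9, 7, 9 and 17 (1.86). It lies in a locus of 9 genes past 2-fold that includes Samhd1, a phosphohydrolase of nucleotides that restricts viruses. At Gtf2b, Uts2r, Serpina3j and Prdx6 both IFNG lists were above the 3 lists without IFNG. The same held at Mrps27 and Olfr695, where IFNG alone was above only narrowly. With touching bin pairs merged, the ratio was 0.77 at Prdx6, under 2-fold, 1.47 at Uts2r and 1.15 at Serpina3j.

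The lowest ratio was that of Cpne3, a copine, on chromosome 4. It had 49 loops in M0[CTR], 9 after IL-4, 38 after IL-4 and rest, 14 after IFNG alone and 17 after pIL-4 + IFNG (log2 ratio -1.78). Klrg2 followed with 39, 18, 40, 20 and 17 loops (-1.46). At both genes M0[CTR] and M2p[pIL-4] held the most loops and the lists with IL-4 or IFNG as last treatment the fewest. Angel2 (21, 24, 18, 7 and 10 loops, -1.29), Ythdf3, a reader of methylated adenosine in RNA (21, 17, 29, 7 and 10, -1.29), and the zinc finger gene Zfat (36, 32, 45, 14 and 18, -1.27) were low in both IFNG lists. Gphb5, a glycoprotein hormone subunit, had 17, 14, 10, 11 and 7 loops (-1.45) and Gm11042 had 22, 14, 8, 17 and 10 (-1.36). With touching bin pairs merged, the ratio was -0.67 at Cpne3 and -0.57 at Klrg2.

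**Figure D3:**
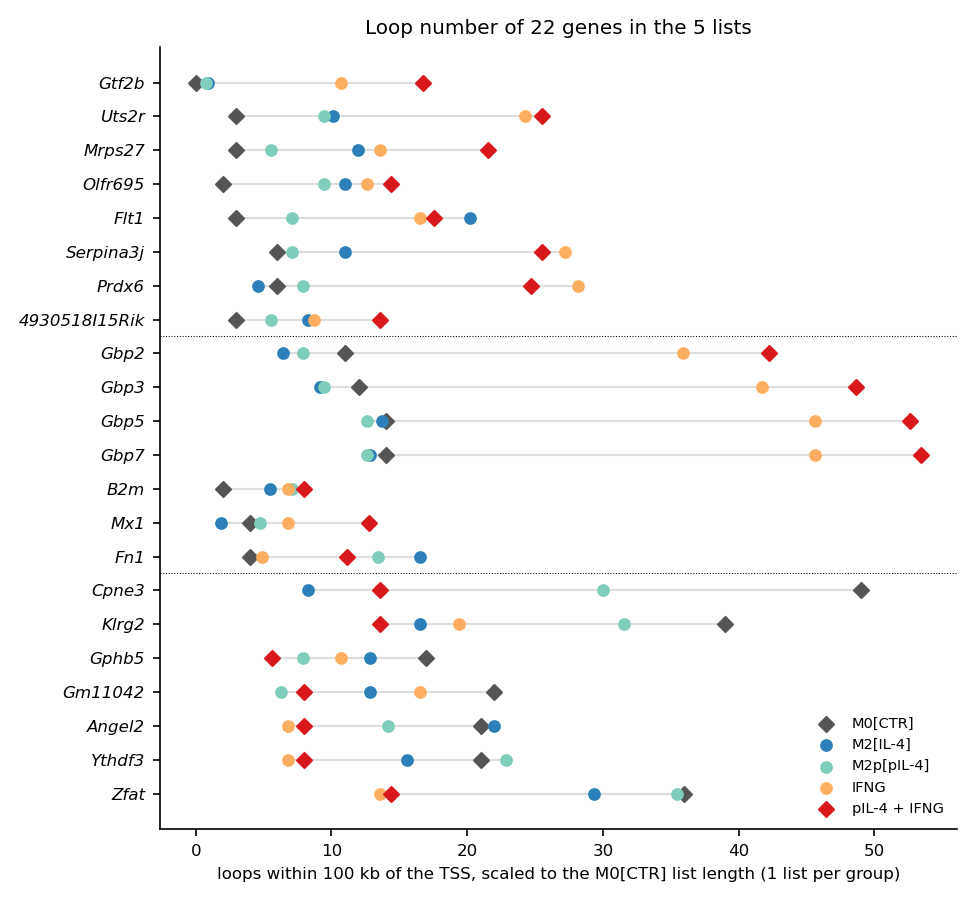
Loops within 100 kb of the TSS, scaled to the M0[CTR] list length (horizontal axis), in the 5 lists for the 8 genes with the highest ratio (top), 7 genes of the fixed lists past 2-fold (middle) and 7 of the 8 lowest (bottom); 1 point per list, no error bars. The 4 guanylate-binding protein genes lie near M0[CTR] in both IL-4 lists and far to its right in IFNG and pIL-4 + IFNG.

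Loops were more numerous at the guanylate-binding proteins, IFNG-induced GTPases that act on the membranes of intracellular pathogens. Gbp5 had 14 loops in M0[CTR], 15 after IL-4, 16 after IL-4 and rest, 47 after IFNG alone and 66 after pIL-4 + IFNG (log2 ratio 1.84). Gbp7 had 14, 14, 16, 47 and 67 (1.86), Gbp3 12, 10, 12, 43 and 61 (1.93), and Gbp2 11, 7, 10, 37 and 53 (1.85). Gbp2b had 11, 8, 10, 35 and 50 (1.77). The 5 genes lie in 1 cluster on chromosome 3 and share most of these loops. Set against IFNG alone, the pIL-4 + IFNG number at Gbp5 was 0.20 higher on the scaled log2 scale, and at Gbp2 0.23 higher. With equal list lengths the ratio over M0[CTR] fell to 0.74 at Gbp5, 0.50 at Gbp2 and 0.22 at Gbp2b. With touching bin pairs merged it was 0.89, 0.79 and 0.79 at these genes, all still above 0. Within 25 kb of the TSS it was 1.38 at Gbp5, 0.69 at Gbp2 and 2.28 at Gbp2b.

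Promoter bins of the cluster, among them those of the Gbp5 and Gbp7 sequences shown above, also anchored more loops. The 10 kb bin that holds the Gbp5 TSS was an anchor of 5 loops in M0[CTR], 5 after IL-4, 6 after IL-4 and rest, 7 after IFNG alone and 10 after pIL-4 + IFNG. For the Gbp3 bin the numbers were 1, 0, 0, 4 and 8, and for the Gbp7 bin 0, 0, 1, 3 and 6. The strongest gained loop of the locus joined chr3:142480001-142490000 to chr3:142670001-142680000, 190 kb apart, with 40 contacts (28.6 to 54.5) in pIL-4 + IFNG. The IFNG list held 25 contacts in the same bins and up to 43 within 25 kb. M2p[pIL-4] held a loop of 23 contacts within 25 kb, and M0[CTR] and M2[IL-4] held none there. Over the 9 bin pairs called in both lists near Gbp5 there were 270 contacts against 283 in M0[CTR], a log2 ratio of -0.09 (exact binomial test, adjusted p = 1).

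**Figure D4:**
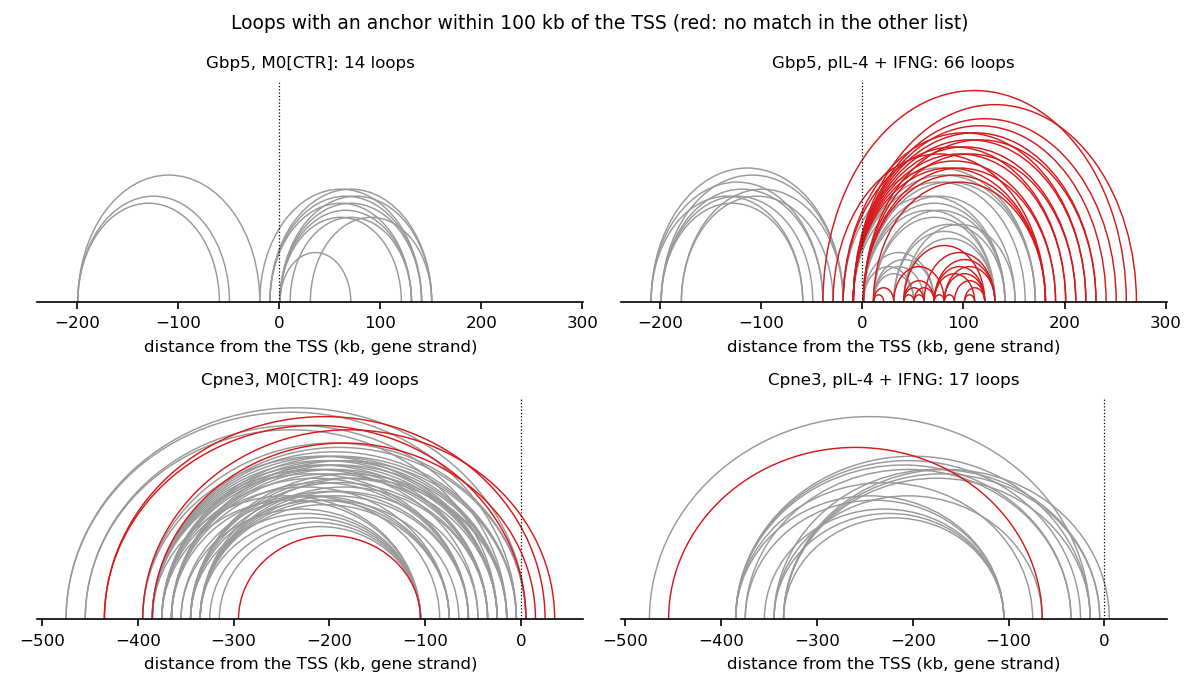
Loops with an anchor within 100 kb of the TSS of Gbp5 (top) and Cpne3 (bottom) in M0[CTR] (left) and pIL-4 + IFNG (right), as arcs over the distance from the TSS in kb on the gene's strand; arc height only follows span. At Gbp5, 38 of 66 treated loops are unmatched (red), all of them with their right end downstream of the TSS, and at Cpne3 the 49 arcs of M0[CTR], 44 of them matched, face 17 arcs in pIL-4 + IFNG.

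At the other IFNG-induced GTPases the ratios were lower. On chromosome 11, Irgm1 had 50 loops in M0[CTR] and 49 in pIL-4 + IFNG (log2 ratio -0.35), Tgtp1 24 and 22 (-0.43), and Tgtp2 38, 32, 38, 21 and 25 in the 5 lists (-0.90). Irgm2 and Igtp, neighbours that share their loops, had 5, 4, 7, 7 and 11 (0.70). Gbp4, Gbp6, Gbp8, Gbp9 and Gbp10 on chromosome 5 had 1 to 3 loops in M0[CTR] and 4 to 6 in pIL-4 + IFNG, too few to be examined, and reads of these near-identical copies may be assigned to any of them. In all, 5 of the 10 GTPases examined were past 2-fold upward and 0 downward, beside the 3.60% and 1.10% of all genes. These 5 genes form 1 cluster that shares its loops. None of the GTPases was past 2-fold upward with equal list lengths or with touching bin pairs merged. Over all 16 annotated GTPases 13 were above 0, with a median of 1.07 against 0 for all genes, 0.56 for IFNG alone, -0.32 after IL-4 and rest and -0.33 after IL-4, all against the same M0[CTR] list.

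The receptors, kinases and STATs of both pathways had a median log2 ratio of 0.07 over the 13 genes of the list, beside 0 for all genes. Jak2, a kinase of the IFNG receptor, had 17 loops in M0[CTR], 20 after IL-4, 29 after IL-4 and rest, 28 after IFNG alone and 31 after pIL-4 + IFNG (log2 ratio 0.51). Ifngr1, the ligand-binding chain of that receptor, had 17, 21, 28, 15 and 17 (-0.31), and Stat6 46, 54, 55, 49 and 52 (-0.15).

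The IFNG-response transcription factors had a median of 0.18 over the 10 genes of the list. Ciita, the activator of MHC class II genes, had 55 loops in M0[CTR], 73 after IL-4, 62 after IL-4 and rest, 77 after IFNG alone and 79 after pIL-4 + IFNG (log2 ratio 0.19), and 16 of the 79 were gained. Batf2 had 29, 34, 43, 40 and 51 (0.47). Irf8, a factor of myeloid development, had 42, 44, 45, 46 and 47 (-0.16). Irf1 had 25, 32, 33, 23 and 26 (-0.26), and the bin of its TSS was an anchor of 3, 4, 4, 0 and 0 loops. Both IFNG lists thus had no loop from the bin of the Irf1 TSS. The TSS lies at the edge of that bin, and most of the promoter sequence shown above falls in the neighbouring bin. Loops of the neighbouring bin are not in these numbers.

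None of the 10 annotated inflammatory chemokines was past 2-fold, beside 3.60% of all genes upward and 1.10% downward. Cxcl9, a ligand of CXCR3 on T cells, had 6 loops in M0[CTR], 12 after IL-4, 11 after IL-4 and rest, 21 after IFNG alone and 16 after pIL-4 + IFNG (log2 ratio 0.97), and its neighbour Cxcl10 had 7, 13, 11, 21 and 16 (0.78). Set against IFNG alone, the ratio of pIL-4 + IFNG at Cxcl9 was -0.64 on the scaled log2 scale. Ccl2, which draws monocytes, had 28, 28, 32, 38 and 47 (0.41), and Ccl5 61, 52, 66, 56 and 50 (-0.60).

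Antigen presentation genes had many loops in both lists. They had a median of 53 loops in M0[CTR] and 79 in pIL-4 + IFNG before scaling, and a median log2 ratio of 0.03. H2-Ab1, an MHC class II chain, had 70, 68, 83, 73 and 94 loops in the 5 lists (0.10), H2-K1, of class I, 59, 66, 81, 59 and 92 (0.31), and the peptide transporter Tap1 81, 81, 97, 82 and 104 (0.03). Of the 17, B2m alone was 2-fold higher, beside 3.60% of all genes. B2m, the invariant chain of class I, had 2, 6, 9, 7 and 10 loops (1.58). Its ratio rested on the 2 loops of M0[CTR], as the other 4 lists held 6 to 10.

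The 20 IFNG effectors had a median of 0.11, and 1 of the 16 examined was 2-fold higher, beside 3.60% of all genes. This was Mx1, a GTPase against viruses, with 4, 2, 6, 7 and 16 loops (1.46). Cd274, the gene of PD-L1, had 27, 37, 49, 51 and 62 (0.85), and Pdcd1lg2 beside it, which encodes PD-L2, had 26, 34, 45, 47 and 56 (0.76). Nos2, inducible nitric oxide synthase, had 51, 48, 56, 60 and 72 (0.17), and Ifi47 41, 32, 38, 21 and 27 (-0.90). Ifi47 lies close to Tgtp2, and the windows in which their loops were counted largely overlap. The largest lost patch named above has an end in both windows, so these ratios describe the same locus. Cybb, Ido1, Rsad2 and Serping1 had at most 3 loops in M0[CTR] or pIL-4 + IFNG. Of the 8 feedback inhibitors none was past 2-fold, beside 3.60% of all genes upward and 1.10% downward. Their median was 0.26. Pias1 had 22, 38, 40, 31 and 44 loops (0.65), Usp18, a brake on interferon signalling, 15, 23, 25, 17 and 29 (0.59), and Socs1 89, 109, 108, 93 and 108 (-0.05).

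On the IL-4 side, none of the 10 transcription factors was past 2-fold, beside 3.60% of all genes upward and 1.10% downward. Klf4 had 66 loops in M0[CTR], 116 after IL-4, 105 after IL-4 and rest, 92 after IFNG alone and 107 after pIL-4 + IFNG (log2 ratio 0.37), and Egr2, an early IL-4 target, 48, 81, 64, 48 and 77 (0.35). Irf4 had 17, 21, 26, 11 and 11 (-0.88), the lowest of the list. The list had a median of 0.10, beside 0.19 after IL-4 and 0.14 after IL-4 and rest, against the same M0[CTR] list.

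The 29 annotated IL-4-induced markers and effectors had a median of 0.00. Of the 23 examined, 2 were past 2-fold upward, Flt1 and Fn1, and 1 downward, Atp6v0d2, beside the 3.60% and 1.10% of all genes. Within 25 kb of the TSS, those past 2-fold upward were instead Arg1, Cdh1 and Pdcd1lg2. Flt1 and Fn1 had ratios of 2.32 and 2.53 there, with too few loops to be examined. Fn1, fibronectin, had 4 loops in M0[CTR], 18 after IL-4, 17 after IL-4 and rest, 5 after IFNG alone and 14 after pIL-4 + IFNG (log2 ratio 1.28). At F10, coagulation factor X, the numbers were 9, 48, 35, 4 and 18 (0.62), with F7 beside it at 9, 48, 33, 3 and 18. Against IFNG alone, pIL-4 + IFNG held more loops by 1.05 at Fn1 and 1.65 at F10 on the scaled log2 scale, and against M2p[pIL-4] the ratio at F10 was -0.90. Arg1, which breaks down arginine, had 11, 30, 16, 15 and 24 loops (0.75). Atp6v0d2, a subunit of the vacuolar proton pump, had 73, 29, 68, 34 and 40 (-1.17), and lies on chromosome 4 near Cpne3. Its ratio was -0.85 within 25 kb and -0.80 with touching bin pairs merged, both within 2-fold. Retnla had 0 loops in all 5 lists and Chil3 at most 1.

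Of 13 genes that the study names, 11 were examined and none was past 2-fold, beside 3.60% of all genes upward and 1.10% downward. Their median over all 13 was 0.19. Edn1, endothelin 1, had 18, 22, 17, 35 and 38 loops in the 5 lists (log2 ratio 0.72), with its own TSS bin an anchor of 2, 5, 3, 7 and 7. Tlr2, the receptor of bacterial lipopeptides, had 10, 4, 9, 15 and 7 (-0.74), and Il6 1, 3, 6, 1 and 1. The 30 housekeeping genes had a median of -0.04, and 1 of 27 examined was 2-fold higher (3.60% of all genes), Ywhaz, with 5, 10, 8, 10 and 20 loops (1.498). Ywhaz lies near a gained patch at Pabpc1 that held 8 loops in pIL-4 + IFNG, 4 in IFNG and 0 in the other lists.

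**Figure D5:**
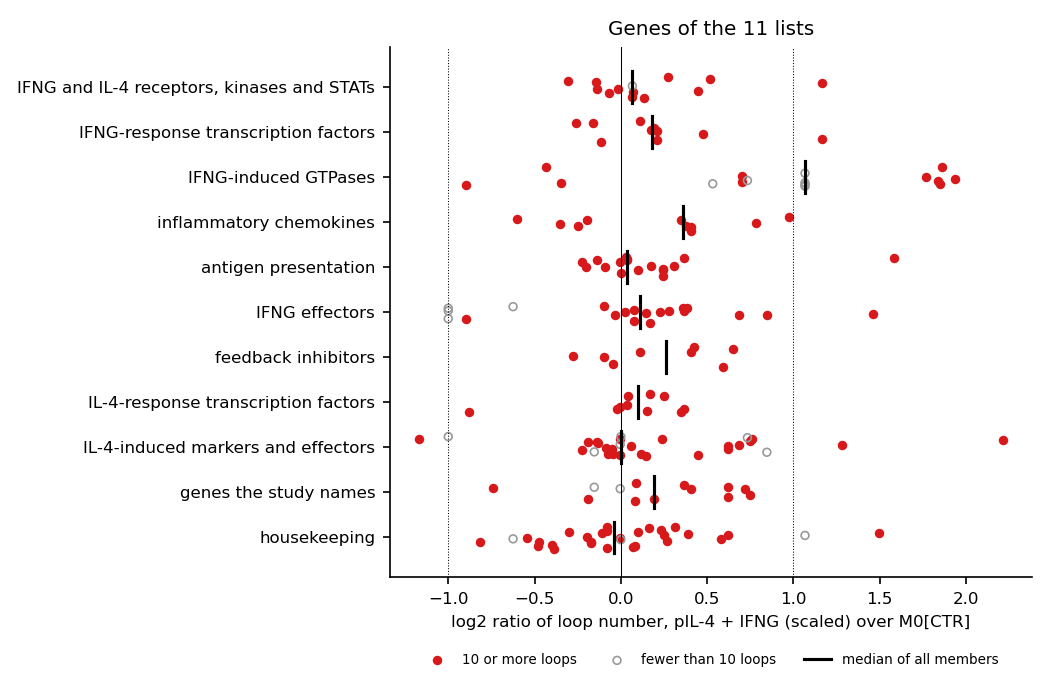
Log2 ratio of loop number, pIL-4 + IFNG scaled over M0[CTR] (horizontal axis), for each annotated gene of the 11 lists; filled points had 10 or more loops in both lists together, open points fewer, and bars mark the median of all members. The GTPases spread from -0.90 to 1.93 with a median of 1.07, and every other list has its median between -0.04 and 0.36.

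Contacts at bin pairs called in both lists were compared as a further measure. The 27780 such pairs held 1332824 contacts in pIL-4 + IFNG and 1312668 in M0[CTR], and anchors were compared by a two-sided binomial test of the 2 libraries against that total. Of 23105 anchors with 20 or more contacts, 6 (0.0260%) passed a Benjamini-Hochberg adjusted p of 0.05, and 516 (2.23%) had an unadjusted p under 0.05. The pair of mitochondrial bins gave 2 of the 6. The other 4 had fewer contacts in pIL-4 + IFNG. Of 13403 genes, 21 (0.157%) passed the same test for the contacts summed within 100 kb, 12 with more contacts and 9 with fewer, at 6 loci by a 200 kb gap between TSSs. By this rule the cluster of serine protease inhibitors (serpins) is split between loci that share bin pairs, so the loci are not all independent.

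In the test of genes, the lowest adjusted p was found at the locus of Irf1 on chromosome 11, beside Rad50, Il5 and Slc22a5. Over 11 bin pairs near Irf1 there were 502 contacts in pIL-4 + IFNG against 705 in M0[CTR], a log2 ratio of -0.51 (95% interval -0.68 to -0.34, exact binomial adjusted p = 4.99e-06). The anchor chr11:53750001-53760000, which holds no protein-coding gene and lies upstream of Irf1, had 173 against 286 contacts (-0.75, -1.03 to -0.47, exact binomial adjusted p = 0.000470). Its loop to chr11:53840001-53850000 held 104 contacts in M0[CTR], 87 after IL-4, 79 after IL-4 and rest, 43 after IFNG alone and 54 after pIL-4 + IFNG. Both IFNG lists were thus the lowest there. The anchor chr11:53840001-53850000 itself, in Gm12216, had 124 against 214 contacts (-0.81, -1.14 to -0.48, exact binomial adjusted p = 0.00318). A gained loop between neighbouring bins, chr11:53740001-53750000 and chr11:53750001-53760000, held 148 contacts, and no other list had a loop within 25 kb of it.

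Contacts were also fewer at Il10ra, the receptor of IL-10, with 1982 against 2219 over 31 bin pairs (-0.18, -0.27 to -0.10, exact binomial adjusted p = 0.0288), and at the anchor in Capn1, a calpain protease, with 375 against 508 (-0.46, -0.66 to -0.26, exact binomial adjusted p = 0.0135). They were more numerous at Zfp281, a zinc finger factor, with 288 against 193 over 6 bin pairs (0.56, 0.29 to 0.83, exact binomial adjusted p = 0.0288), where the loop number was 8, 9, 16, 32 and 35 in the 5 lists. At Cnn3, calponin 3, there were 429 against 302 contacts (0.48, 0.27 to 0.70, exact binomial adjusted p = 0.0134) and 11, 10, 13, 32 and 38 loops. At Serpina3n of the serpin cluster there were 409 against 292 (0.46, 0.24 to 0.69, exact binomial adjusted p = 0.0288). Loop number was also higher at these 3 loci, which were named because their contacts passed the test. Loops and contacts come from the same libraries, so neither measure is independent of the other. Near the serpins, 5 of the genes past the test rest on the same 15 bin pairs. With bin pairs called in all 5 lists, Irf1, Cnn3, Zfp281 and Il10ra passed again and the serpin genes did not.

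Facts of the whole lists bear on these values as follows. The lists held 2174945 contacts in M0[CTR] and 2757773 in pIL-4 + IFNG, which is the called part of each library, and all 5 had a median of 32 contacts per loop. The deposited lists do not give sequencing depth per sample. Chromosome X held 150 and 172 loops, so X-linked members (Il2rg, Il13ra1, Cybb and Hprt) had few. All 10 macrophage markers had loops in both lists, with a median log2 ratio of -0.12 and none past 2-fold. Markers of neutrophils (median 0.15), T cells (0.42), B cells (0.10), erythroid cells (-0.15), dendritic cells (0.11) and stromal cells (-0.15) were spread around 0, and Bcl11b, Pax5, Alas2 and Lepr had 0 loops in both lists. Past 2-fold upward were Csf3r (1 of 9 neutrophil markers examined), Epor (1 of 4 erythroid) and Ccr7 (1 of 5 dendritic cell). Col1a2 (1 of 4 stromal) was past 2-fold downward, and no T cell or B cell marker was past it. Of all genes examined, 3.60% were past 2-fold upward and 1.10% downward. Loops near a gene do not measure its expression, and the part of other cell types in the results was not tested.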

How the data were processed

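Hi-C was performed on 10 samples, 2 per group, and the authors deposited 1 merged list of loops per group, with the contact count of each bin pair as whole-number counts. The submitters' processing notes name FastQC, Bowtie2, HiC-Pro, Juicer, HOMER and mm10; the caller and threshold of the 10 kb lists are not given in the sources used here. A merged list cannot separate a contact gained in the cells from one called because more reads were merged. Loops were matched within 25 kb at both anchors, and genes (GENCODE release 21 for mouse) were given the loops with an anchor within 100 kb of the TSS. Ratios used list length as scale and a pseudocount of 1, for genes with 10 or more loops. Contacts were compared by exact binomial tests, which compare 2 libraries and not the conditions, with Benjamini-Hochberg adjustment over all anchors or genes with 20 or more contacts. Shares carry 95% Wilson intervals and counts exact Poisson intervals, for counting error only.

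The scripts were tested on simulated data and ran in Python 3.11.15 with scipy 1.17.1, pandas 2.3.3 and numpy 2.4.6, and figures were drawn with matplotlib 3.10.9. The comparison, gene lists and tests were chosen with earlier results of these data known. Named genes were members of the gene lists and the 8 highest and 8 lowest ratios among genes with 20 or more loops, 1 per 500 kb, with the 5 strongest gained and lost loops, the strongest gained loop near a named gene, and anchors past the contact test. Genes named from the gene contact test and the patches were chosen after their values were seen. Results of some genes that meet this rule are not reported here.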

Additional observations from a re-analysis of the deposited data

Results flagged for a closer look

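The lists hold 1 bin pair of the mitochondrial genome, which no comparison of genes used. It had 220 contacts in pIL-4 + IFNG against 105 in M0[CTR], 167 after IL-4, 155 after IL-4 and rest and 163 after IFNG alone. It is listed because it is a signal outside the chromosomes of the main comparison and above the level in M0[CTR].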

How the results depend on the processing

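No paired analysis was possible because the 2 replicates of each group were merged into 1 list, so the replicate block with edgeR and leaving out each replicate could not be run. The matched share of pIL-4 + IFNG loops was 41.5% with the same bins required, 92.7% within 50 kb and 87.1% with equal list lengths. Gained loops numbered 39220 with the same bins and 4879 within 50 kb, and lost loops 25644 and 2219. With equal list lengths they were nearly balanced, at 6866 gained and 6634 lost. Genes with higher loop number were 293 within 25 kb, 136 with a pseudocount of 5, 1283 with no filter, 1389 at 1.5-fold (a log2 ratio of 0.58), 667 with loop ends counted and 183 with touching bin pairs merged, an alternative chosen after seeing the data. Genes with lower loop number were 348 with equal list lengths, 23 with a pseudocount of 5, 916 with no filter and 775 at 1.5-fold. IFNG-induced genes with higher loop number, 8 in the report, were 5 within 25 kb, 1 (Mx1) with equal list lengths, 5 with a pseudocount of 5, 14 at 1.5-fold and 4 with touching bin pairs merged (Ccl2, Ccl7, Ccl8 and Ccl12). IL-4-induced genes, 2 in the report, were 3 within 25 kb (Arg1, Cdh1 and Pdcd1lg2), 1 with a pseudocount of 5 and 7 at 1.5-fold. The causes were not tested. Without the mitochondrial bin pair, also chosen after seeing the data, 4 anchors passed the contact test. With bin pairs called in all 5 lists 26 genes passed, 13 of them among the 21. Sequencing depth is not in the lists, so how far depth sets their lengths was not tested.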
